A study of Mus musculus with 2 samples.

Results

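Expression of 10 genes for actin and its binding proteins was compared between naive CD8+ T cells that lack Bcl11b and their wild-type counterparts. The genes are Tmsb4x, Tmsb10, Actb, Actg1, Pfn1, Cfl1, Coro1a, Arpc2, Tagln and Tagln2, out of 27597 gene names on the array, of which 9273 had a probe bright enough to test. They were picked out on measured values, namely the high knockout over wild-type ratio of Tmsb4x and the low one of Tagln, and were chosen by gene name with every probe of each. Their own ratios are therefore given as a description, and where the fit across all probes is mentioned for them, its calls are no independent support. All 10 were found, with 16 probes on 25 spots of each array. One of the probes was too dim to test, which left 15.

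The knockout mice carry floxed Bcl11b alleles and an iCre transgene under the distal Lck promoter (Bcl11bF/F/dLck-iCre), a promoter active late in T cell development, and wild-type mice were the controls. Both are on the C57BL/6 background, and neither the age of the mice nor the number pooled for each sample is given in the labels. The sorted cells were CD8+ with low CD44 and CD25, at a stated purity of over 90%, and were untreated. On each of 2 arrays the knockout RNA was labelled with Cy5 and hybridised together with Cy3-labelled wild-type RNA, so the n of every ratio is 2. The dyes were not swapped, so dye and genotype cannot be told apart.

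Actin cycles between single subunits and filaments, and the filaments give a T cell its shape, its motility and the contact it forms with a target cell. Thymosins hold actin subunits in reserve, profilin feeds them to growing filament ends, the Arp2/3 complex starts branches, cofilin severs old filaments, and coronin and transgelin bind along filaments. Lymphocytes express many of these genes at high levels, whereas transgelin is best known from smooth muscle.

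Promoter sequence is shown for 3 genes that the results below turn on: Tmsb4x, whose high ratio led to the choice of genes, Pfn1, whose ratio repeated most closely among the genes with a single probe, and Actg1, the only one of the 8 genes searched with a CArG box, the motif bound by serum response factor. Each is the 250 bases before the transcription start in RefSeq on GRCm38.p6, read 5′ to 3′ on the strand of the gene. Capitals mark the GC box GGGCGG, the letters CCAAT or else the letters TATAA, each on either strand, and the CArG box.
Tmsb4x, chrX:167209219-167209468, minus strand: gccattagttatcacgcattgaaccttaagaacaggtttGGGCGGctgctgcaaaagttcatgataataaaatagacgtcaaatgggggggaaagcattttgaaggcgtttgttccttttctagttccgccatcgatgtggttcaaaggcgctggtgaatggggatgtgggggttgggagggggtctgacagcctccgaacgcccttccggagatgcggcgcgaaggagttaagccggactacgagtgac
Pfn1, chr11:70654651-70654900, minus strand: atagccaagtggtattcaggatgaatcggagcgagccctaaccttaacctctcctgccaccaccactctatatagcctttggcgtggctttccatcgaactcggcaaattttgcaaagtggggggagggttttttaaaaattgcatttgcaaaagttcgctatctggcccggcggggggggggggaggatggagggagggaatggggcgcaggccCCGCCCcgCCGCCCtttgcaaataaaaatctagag
Actg1, chr11:120348496-120348745, minus strand: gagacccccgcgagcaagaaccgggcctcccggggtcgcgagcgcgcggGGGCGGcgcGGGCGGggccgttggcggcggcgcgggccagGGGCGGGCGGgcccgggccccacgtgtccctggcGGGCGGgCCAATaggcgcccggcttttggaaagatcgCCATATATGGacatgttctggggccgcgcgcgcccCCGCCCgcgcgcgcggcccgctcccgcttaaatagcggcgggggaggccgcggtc
Windows were found for 8 of the 10 genes, 11 windows in all since Tmsb10 and Coro1a have several starts; Actb and Tagln are not among them. GGGCGG stood in 9 of the 11 windows, against 32.7% of all 32851 windows, and some of its copies in Actg1 overlap each other. CCAAT was in 2 (33.9% of all) and TATAA in 2 (22.8% of all). The CArG box of Actg1, CCATATATGG, begins 90 bases before the start, and 1.47% of all windows hold one. A match of letters describes the window and is not a measured binding site.

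The arrays differed in the spread of their ratios, which bears on every value below. The interquartile range of the log2 ratios of all 11833 tested probes was 1.33 on array 1 and 0.38 on array 2. On array 1, 3235 probes exceeded 2-fold in either direction, against 291 on array 2. Spots for genes with a signal well above background numbered 17276 in the knockout and 10739 in wild type on array 1. On array 2 they numbered 10955 and 13446. The wild-type sample of array 1 thus had the fewest, close to the knockout sample of array 2. The part of this difference in the ratios of array 1 was not tested. The deleted gene, Bcl11b, had log2 ratios of -1.45 and -1.73 by its brightest probe and -0.35 and -2.32 by a second, without passing the test across all probes (adjusted p = 0.159 and 0.319, limma). The 8 CD8 T cell markers examined (Cd8a, Cd8b1, Cd3d, Cd3e, Cd3g, Cd2, Lck and Thy1) were well above background in all 4 samples, with a summed normalised intensity of 500711 and 472701 in the knockout and 337703 and 321653 in wild type.

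Tmsb4x, which encodes thymosin beta-4, the main peptide that sequesters actin subunits, stood out among the 10. Its normalised log2 intensity was 17.45 and 17.44 in the knockout samples of arrays 1 and 2, against 13.48 and 15.61 in the wild-type samples. The knockout samples lay together above both wild-type samples, and the wild-type samples lay apart from each other. The log2 ratios were 3.97 on array 1 and 1.83 on array 2, that is 15.7-fold and 3.55-fold higher in the knockout, with a mean of 2.90 ± 1.52 (SD, n = 2). The raw signals were 301975 and 345605 in the knockout and 5265 and 32518 in wild type, before any correction for dye or brightness, and none of these spots was saturated. Only 1 probe on the array carries this name, on mm8 chromosome X from 162551541 to 162551600, so no second probe checks the value. These are bulk samples, in which fewer cells of a type and less RNA per cell cannot be told apart.

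Tmsb4x was also the only one of the 15 tested probes called at adjusted p 0.05 in the limma fit across all probes. In that fit 0.237% of all probes were called higher in the knockout and 0.0254% lower. It was likewise the only one over 2-fold higher on both arrays, a mark that 0.947% of all tested probes reached. None was over 2-fold lower on both arrays (0.203% of all probes were), and none was called lower, with Tagln the only probe of the 15 that was lower at an unadjusted p under 0.05. Since the genes were chosen on this contrast, these counts support nothing further. With the scanner's own log ratio, with arrays centred on their medians, with ratios scaled to the same spread, or without the filter on dim probes, Tmsb4x was not called.

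Sex-linked genes and markers of other cells also differed between the samples. Y-linked Eif2s3y was well above background in the knockout sample of array 1 and the wild-type sample of array 2 only, as was Ddx3y. Xist, expressed from the inactive X chromosome of females, was well above background in the knockout sample of array 2 only. In the wild-type sample of array 1 neither Xist nor any Y-linked gene examined was well above background, so its sex cannot be read from them. The ratios of Eif2s3y and Ddx3y thus had opposite signs on the arrays (1.99 and -2.98 for Eif2s3y). On array 2 the knockout sample had the Xist signal and the wild-type sample the Y-linked signals, so sex and genotype cannot be told apart there. Y-linked Uty was not well above background in any sample. The part of the animals' sex in the value of X-linked Tmsb4x was not tested. Of 5 NK cell markers, all were well above background in both knockout samples and 3 in each wild-type sample, and their summed normalised intensity was 64544 and 132154 in the knockout against 30973 and 27043 in wild type. Among these Fcer1g, Klrb1c and Tyrobp were called higher. Klrd1 (log2 ratios 0.81 and 1.16) and Ncr1 (-0.20 and 0.86) were not called.

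Of 6 myeloid markers, 4 were well above background in both knockout samples, against 1 and 2 in wild type on arrays 1 and 2. Their sum was 18550 and 19976 in the knockout and 5437 and 14939 in wild type. Adgre1 and Csf1r were called higher. Lyz2 (log2 ratios 4.03 and -0.38 by its brightest probe) and Cst3 (0.65 and 0.55) were not called. Cd68 and Itgam were not well above background in any sample. Platelet markers summed to 3073 and 3658 in the knockout and 5901 and 4315 in wild type. Of these 6 markers, 1 was well above background in the knockout sample of array 2 and 3 in each other sample. None was called, and Pf4, Ppbp and Gp9 were not well above background in any sample, so the sums hold much background signal. Erythroid markers summed to 3791 and 5593 in the knockout and 2029 and 5948 in wild type, with Alas2 not well above background in any sample. The part of NK, myeloid, platelet and erythroid cells in the Tmsb4x value was not tested.

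**Figure D1:**
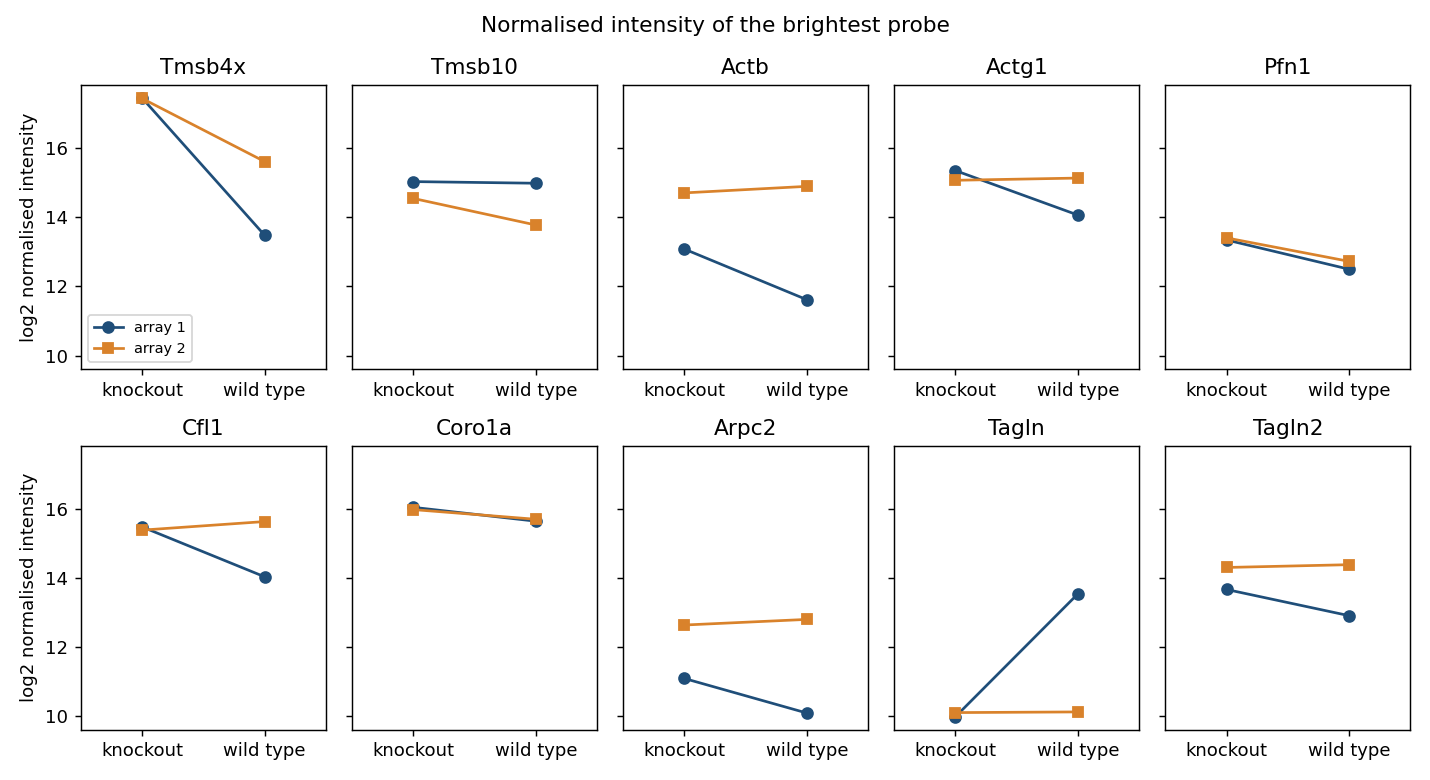
Normalised log2 intensity of the brightest probe of each gene in the knockout and wild-type samples, with a line joining the samples of one array (circles array 1, squares array 2). The knockout samples of Tmsb4x coincide at 17.45 and 17.44, and for Tagln the wild-type sample of array 1 stands alone at 13.55; heights of different genes come from different probes and are not comparable.

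Tmsb10, which encodes thymosin beta-10, a close relative with the same activity, did not share the pattern. By its brighter probe it was at 15.03 and 14.55 in the knockout samples, against 14.98 and 13.78 in wild type. The log2 ratios were 0.05 on array 1 and 0.77 on array 2 (mean 0.41 ± 0.51, SD, n = 2). The genotypes overlapped, since wild type on array 1 lay above the knockout on array 2. The second probe gave -0.52 and 0.49 (mean -0.02 ± 0.72), so both probes placed the knockout relatively higher on array 2, the opposite of Tmsb4x. The brighter probe is annotated over 320 bases of mm8 chromosome 6 from 72887114 to 72887433, and the second from 72887437 to 72887496.

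Pfn1, profilin 1, which exchanges the nucleotide of actin subunits and delivers them to filament ends, gave the smallest gap between arrays among the genes with a single probe. It was at 13.34 and 13.40 in the knockout samples and 12.50 and 12.72 in the wild-type samples, and the genotypes did not overlap. The log2 ratios were 0.85 and 0.68, a mean of 0.76 ± 0.12 (SD, n = 2), or 1.70-fold higher in the knockout. Its probe is annotated over 625 bases of mm8 chromosome 11 from 70468381 to 70469005, on the strand of the gene.

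The actins themselves were near even on array 2 and differed on array 1 according to the probe. Actg1, cytoplasmic gamma-actin, was at 15.35 and 15.07 in the knockout samples, against 14.06 and 15.13 in wild type, by the brighter probe on mm8 chromosome 11 from 120162222 to 120162281. The log2 ratios of 1.29 on array 1 and -0.06 on array 2 averaged 0.61 ± 0.96 (SD, n = 2). A second probe, 925 bases farther from the 3′ end, from 120163147 to 120163206, gave 0.01 and -0.30. The genotypes overlapped at both probes, and at the first the wild-type sample of array 1 was the low one.

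For Actb, cytoplasmic beta-actin, the array holds a probe on the gene's own chromosome, on mm8 chromosome 5 from 143168706 to 143168765, printed on 10 spots. Its knockout samples were at 10.14 and 10.27 and its wild-type samples at 9.89 and 10.34. The log2 ratio was 0.25 on array 1 and -0.06 on array 2, with an SD between spots of 0.11 and 0.09 over the 9 spots without an outlier flag on each array. The gap between arrays was thus larger than the spread between spots of one array. The raw signals of this probe were 1206 to 1905 in the knockout sample of array 1 against 1184 to 1278 in wild type, where negative control spots had medians of 985 and 1087. In the wild-type sample of array 1, none of the 10 spots was well above background. The values of this probe are thus close to the level of spots with no target, in wild type on array 1 above all.

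The other probe that the files name Actb rests on a cDNA clone placed on chromosome X from 147774990 to 147775049, while the gene lies on chromosome 5. It was at 13.08 and 14.70 in the knockout, against 11.62 and 14.89 in wild type, with log2 ratios of 1.47 and -0.19 (mean 0.64 ± 1.17, SD, n = 2). Actin genes have many processed copies of near-identical sequence, and the probes carry no sequence in the files, so which actin transcripts it detects is uncertain.

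Cfl1, cofilin 1, which severs aged filaments, resembled Actg1. Its brighter probe, on mm8 chromosome 19 from 5493882 to 5493941, was at 15.48 and 15.38 in the knockout samples and 14.04 and 15.63 in the wild-type samples. The log2 ratios were 1.44 and -0.25, a mean of 0.60 ± 1.20 (SD, n = 2). A second probe 497 bases farther from the 3′ end gave -0.36 and 0.30, so each array had opposite signs at the probes of this gene. Neither genotype was higher throughout.

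Coro1a, coronin 1A, a filament-binding protein of leukocytes required for T cell survival and migration, had low ratios that repeated at its brighter probe. There it was at 16.04 and 15.98 in the knockout samples, against 15.64 and 15.70 in wild type, and the genotypes did not overlap. The log2 ratios of 0.40 and 0.28 averaged 0.34 ± 0.09 (SD, n = 2), or 1.27-fold. A second probe 913 bases farther from the 3′ end gave 1.21 and 0.13. All 4 values of the gene were above 0, as were those of Pfn1 and Tmsb4x.

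Arpc2, a subunit of the Arp2/3 complex, was at 11.10 and 12.64 in the knockout, against 10.09 and 12.80 in wild type. Its log2 ratios were 1.00 on array 1 and -0.16 on array 2 (mean 0.42 ± 0.82, SD, n = 2), and the wild-type signal of array 1 was not well above background. The probe is annotated over 1003 bases of mm8 chromosome 1 from 74188186 to 74189188.

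Tagln, transgelin or SM22-alpha, owed its low ratio to 1 sample. Its brighter probe, on mm8 chromosome 9 from 45681009 to 45681068, was at 9.99 and 10.11 in the knockout samples, against 13.55 and 10.13 in wild type. The knockout samples and the wild-type sample of array 2 lay between 9.99 and 10.13, and the wild-type sample of array 1 stood alone above them. The log2 ratios were -3.56, or 11.8-fold lower in the knockout, on array 1 and -0.02 on array 2 (mean -1.79 ± 2.50, SD, n = 2). The raw signals were 2000 and 2754 in the knockout and 5639 and 1582 in wild type. Negative control spots had medians of 985 and 1865 in the knockout and 1087 and 1120 in wild type. Apart from wild type on array 1, the Tagln signals thus lay close to the level of spots with no target. The ratio on array 2 compares dim signals, and the size of the ratio on array 1 is uncertain. The second probe, from 45681828 to 45681887, was not well above background in any sample.

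Of 5 smooth muscle and stromal markers, 1 was well above background in each knockout sample, against 3 in each wild-type sample, and the 3 with a tested probe differed in direction. Their summed normalised intensity was 5834 and 18659 in the knockout and 4653 and 16511 in wild type, to which Acta2, smooth muscle alpha-actin, gave the largest share in every sample. By its brightest probe, Acta2 was at 11.90 and 14.02 in the knockout against 10.91 and 13.76 in wild type. The other probes of Acta2 were not well above background in any sample, so no second probe checks these values. Myh11, smooth muscle myosin, was not well above background in either knockout sample, with a bound of at least 1.16-fold lower there. Its measured values were 9.31 and 9.32 in the knockout against 9.76 and 9.85 in wild type. Col1a1, a collagen of connective tissue, was likewise below that mark in the knockout, with a bound of at least 1.16-fold lower. It was at 9.49 and 9.47 in the knockout against 10.03 and 9.75 in wild type, highest in the wild-type sample of array 1. Neither Myh11 nor Col1a1 was called lower (adjusted p = 0.743 and 0.797, limma), so neither decrease is established. Col1a2 and Col3a1 were not well above background in any sample. The part of smooth muscle or stromal cells in the Tagln value was not tested.

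Tagln2, the transgelin of lymphocytes and many other cells, had the opposite sign to Tagln on array 1. It was at 13.67 and 14.30 in the knockout samples and 12.91 and 14.39 in the wild-type samples, with log2 ratios of 0.76 and -0.08 (mean 0.34 ± 0.59, SD, n = 2). The genotypes overlapped.

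**Figure D2:**
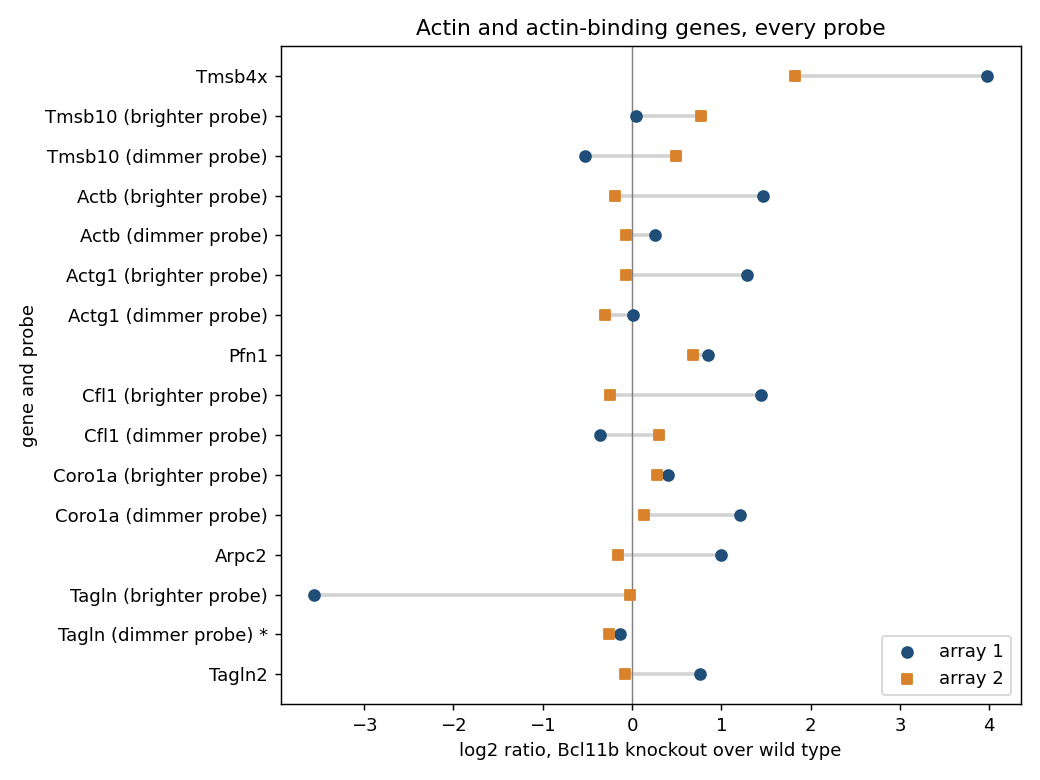
Log2 ratio of knockout over wild type for each of the 16 probes on array 1 (circles) and array 2 (squares), joined by a grey line; the asterisk marks the Tagln probe that was too dim to test. Tmsb4x lies to the right on both arrays, at 3.97 and 1.83, while Tagln lies at -3.56 on array 1 and -0.02 on array 2.

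Across the 15 tested probes the genes were higher in the knockout mainly on array 1. There 12 of the 15 probes were above 0, with a median log2 ratio of 0.76, while 53.9% of all tested probes were above 0 and their median was 0.10. On array 2, 7 of the 15 were above 0, with a median of -0.02, against 48.5% and -0.01 for all probes. Both arrays were above 0 for 5 probes, those of Tmsb4x, Pfn1 and Coro1a and the brighter one of Tmsb10, or 33.3%, beside 31.7% of all tested probes. Both were below 0 for 1, the brighter probe of Tagln (6.67%, beside 29.3% of all). With arrays centred on their medians in place of loess, every tested probe was above 0 on both arrays except that of Tagln on array 1, but the median of the mean ratios over all probes was then itself 0.66. Over 2-fold changes occurred at 7 of the 15 probes on array 1 and at 1 on array 2. Of all 11833 tested probes, 3235 were over 2-fold changed on array 1 and 291 on array 2.

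The level of many of these probes also differed between the arrays. The mean of knockout and wild type was over 1 log2 unit higher on array 2 at 6 of the 15 probes, a gap that 5.32% of all tested probes showed. At Tmsb4x, 1 of the 6, the gap lay in wild type alone. The widest gaps were at the second probe of Coro1a (2.47), the clone probe named Actb (2.45) and Arpc2 (2.13). The brighter probe of Coro1a differed by only -0.01, so probes of 1 gene disagreed on this too. At 10 of the 15 probes the gap between arrays was larger than the mean ratio between genotypes, as it was at 44.0% of all tested probes. Within Actg1, Cfl1 and Coro1a the probe farther from the 3′ end had the larger gap (0.87 against 0.40, 1.09 against 0.75, and 2.47 against -0.01), while in Tmsb10, where both probes were lower on array 2, the signed gap was lower at the farther probe (-0.94 against -0.85). Over the 1535 genes with 2 or more tested probes of one accession, the farther probe had the larger gap in 59.9%, with medians of 0.09 for the farther and -0.03 for the nearer probe. The part of RNA quality or amplification in these gaps was not tested.

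**Figure D3:**
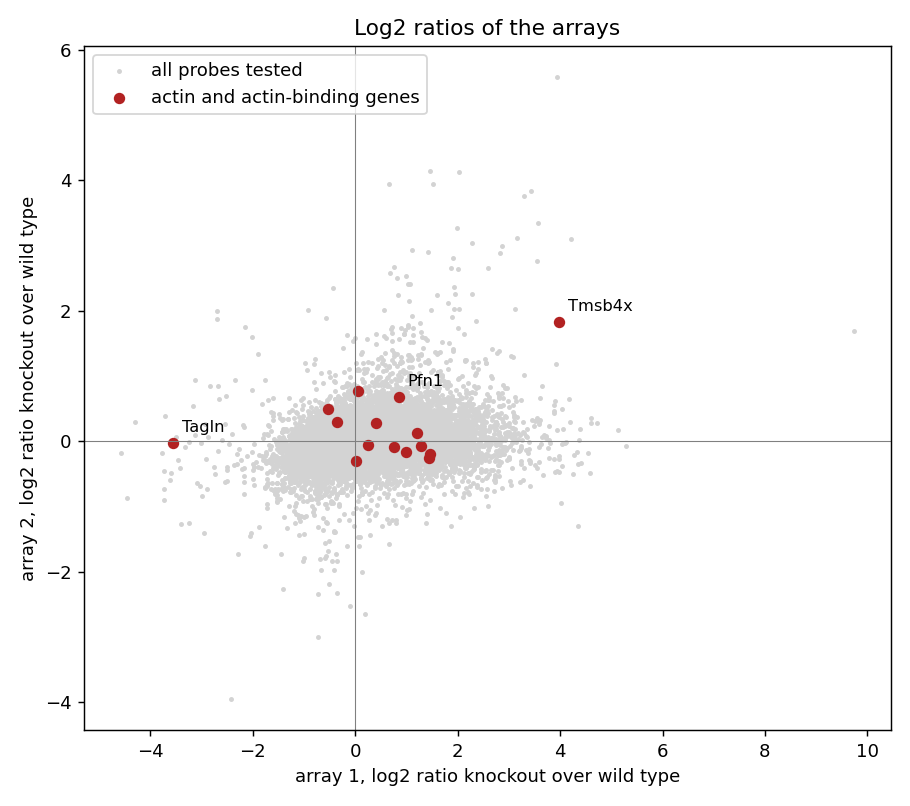
Log2 ratio of knockout over wild type on array 1 (x axis) and array 2 (y axis) for the 11833 tested probes (grey) and the 15 tested probes of the actin and actin-binding genes (red). Most red points spread along the x axis with values near 0 on the y axis, and Tmsb4x is the only one over 2-fold on both.

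Nearest genes were sought by Euclidean distance over the 2 arrays, with the brightest probe of each gene. Names that are accessions, clones or predicted genes were left out. Nearest to Tmsb4x in the plane of the array ratios were Cd81 (3.12 and 2.03), Cd9 (3.54 and 2.76), Ly86 (3.64 and 0.85) and a probe the files name COX2 (3.29 and 1.01), at distances of 0.88 to 1.06. Cd81 and Cd9 are tetraspanins of the cell surface. Except for COX2, their wild-type signal was not well above background on array 1. Nearest to Tagln were Syn1 (-3.43 and -0.41), Trim68 (-3.12 and 0.10), Ptms (-3.59 and -0.49) and Tfap2e (-3.01 and -0.02), at 0.41 to 0.54.

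Other genes of the actin cytoskeleton were examined in 9 lists by role. Of 99 genes listed, 74 had a tested probe, 103 probes in all, and none was called in either direction by limma (12 probes, all higher in the knockout, had an unadjusted p under 0.05, that is 11.7% of the 103, beside 10.2% of all tested probes). No probe was over 2-fold changed on both arrays in either direction. By the brightest probe of each gene, the median of the mean log2 ratios was 0.21, beside 0.04 over all 9273 genes. On array 1 the median was 0.36 (0.05 over all genes) and on array 2 it was 0.10 (-0.01 over all genes). Of the 74 genes, 32 (43.2%) were above 0 on both arrays and 10 (13.5%) below 0 on both, beside 30.9% and 30.8% of all genes. The genes whose ratios are given below were picked among those with 1 sign on both arrays by their brightest probe. Their agreement in sign was thus fixed in advance.

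Arp2/3 subunits had the highest list median, 0.46, and 6 of the 8 measured were above 0 on both arrays with none below 0 on both. Actr3, which with Actr2 forms the base of a new filament, was at 16.49 and 16.22 in the knockout samples, against 12.61 and 15.78 in wild type, with log2 ratios of 3.88 and 0.44. As with Tmsb4x, the wild-type sample of array 1 was the low one. The part of that sample's signal in these ratios was not tested. Arpc1b, the isoform of the subunit that prevails in blood cells, was at 1.21 and 0.78 (mean 0.99 ± 0.30, SD, n = 2), and its genotypes did not overlap. Actr2 was at 2.18 and 0.10, and Arpc3 at 0.69 and 0.53.

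Activators of the complex had a median of 0.24 over 11 measured genes. Abi1, of the WAVE complex, was at 1.81 and 0.21, and Nckap1l, its leukocyte subunit, at 0.71 and 0.38. Wipf1, the partner of the Wiskott-Aldrich protein, was at 1.13 and 0.09, and Dock2, an activator of Rac, at -0.70 and -0.02. Formins, which lengthen unbranched filaments, had a median of -0.04 over 6 genes and differed between arrays (-0.36 on array 1 and 0.33 on array 2); Fmnl3 was at -1.36 and -0.45, and Diaph2 at 1.05 and 0.42.

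Genes of filament turnover had a median of 0.19 over 12, among them Gmfb (1.82 and 0.17) and Gmfg (0.66 and 0.19), which remove branches, Cap1 (1.25 and 0.18) and the cofilin phosphatase Ssh2 (0.76 and 0.26). Capping and severing genes had 0.28 over 7, with Tmod3 at 1.76 and 0.003 and Flii at -0.56 and -0.05. Crosslinkers and membrane linkers had 0.22 over 13. Msn, moesin, which ties filaments to the membrane, was at 1.61 and 0.35, the spectrin gene Sptbn1 at 1.81 and 0.37, Rdx at 0.39 and 0.24, and Actn4 at 0.12 and 0.43.

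Myosins and tropomyosins had a median of 0.29 over 11 genes. Myh9, the heavy chain of non-muscle myosin IIA, was at 15.65 and 16.62 in the knockout, against 13.74 and 15.98 in wild type (log2 ratios 1.91 and 0.64). Tpm4 was at 1.88 and 0.42, the light chain Myl6 at 0.44 and 0.69, and Myo1f at 0.26 and 0.76. Only 4 of 9 muscle actin and calponin genes were bright enough to test; Cnn3 was at 1.27 and 0.46, Acta2 at 0.99 and 0.26, and Tagln3 at -0.59 and -0.16. Acta1, Actc1, Actg2 and Cald1 were not well above background in any sample. Of Srf and its actin-regulated cofactors Mrtfa and Mrtfb, the 2 tested had a median of -0.11.

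**Figure D4:**
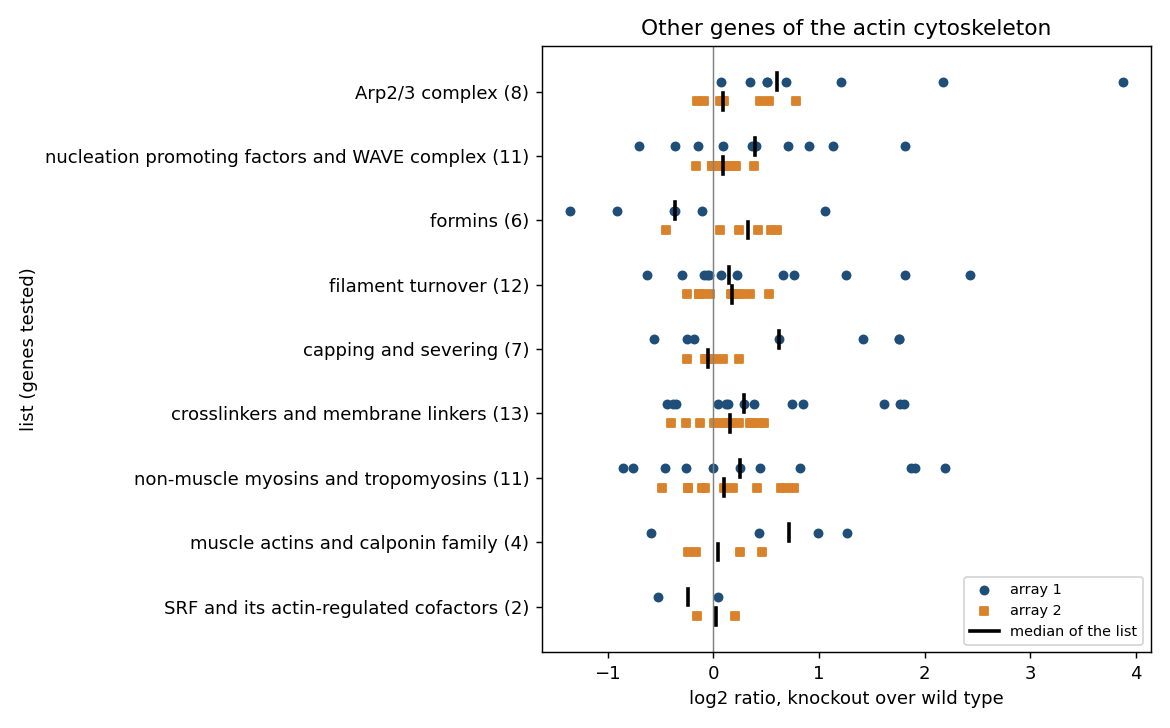
Log2 ratio of knockout over wild type on array 1 (circles) and array 2 (squares) for the brightest tested probe of each gene in 9 lists of actin cytoskeleton genes, with the number of genes tested in brackets and black bars at the list medians. Values spread far more widely on array 1, where Actr3 reaches 3.88, than on array 2, where none exceeds 0.78.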

How the data were processed

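Each of the 2 arrays is a two-colour Agilent mouse array, the knockout labelled with Cy5 and wild type with Cy3, called biological replicates in the labels. The p-values rest only on the spread between these arrays, which limma pooled largely over all probes (prior degrees of freedom 18.7). The standard error was thus 0.42 for Pfn1, 0.49 for Tmsb4x and 0.58 for Tagln, whose own SDs were 0.12, 1.52 and 2.50. A call therefore says little about how well the ratios of 1 gene repeat. The authors deposited scanner intensity files from Feature Extraction 9.5.3.1 (Agilent), per the file headers, and a value table of log10 ratios, which matched the scanner's log10 ratios within 0.005. Coordinates are those of the files (mm8).

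From the deposited intensities, mean signals were background-corrected (normexp, offset 50) and normalised by loess within arrays in limma 3.58.1 (R 4.3.3), and spots of a probe were averaged as log2 ratios of knockout over wild type. Levels are log2 intensities after Aquantile normalisation between arrays. Probes entered the test where one and the same channel was well above background on each array. For these 11833 probes limma's moderated test (lmFit, eBayes) set the mean ratio against 0, two-sided, at a Benjamini-Hochberg adjusted p of 0.05. A probe not well above background in 1 genotype on both arrays has a bound, taken from the lowest signal well above background. Probes were named by accession through RefSeq where listed, otherwise by symbol (24375 of 41174 by accession).

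The 10 genes and all lists were chosen with earlier results of these data known. Named are all 10 with every probe, Bcl11b, and up to 4 genes of each actin list. The latter had the largest mean ratio among those of 1 sign on both arrays. Also named are the 4 genes nearest to Tmsb4x and Tagln, with accession, clone and predicted-gene names left out. Other names (sex-linked genes, markers) were added as values beside these. The number of arrays limits the precision. The result of 1 marker list is not reported here.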

Additional observations from a re-analysis of the deposited data

How the results depend on the processing

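Across all probes limma called 28 higher and 3 lower in the knockout, and these counts depended strongly on the processing. An offset of 16 gave 233 and 38, the brightest probe of each gene 115 and 23, and both channels above background 32 and 18, while no background correction gave 15 higher. Median centring gave 1 and 0. The scanner's log ratio, the deposited value table, ratios scaled between arrays and no filter gave 0 and 0, with 512, 511, 1033 and 3651 probes at an unadjusted p under 0.05. Of the 15 probes of the 10 genes, Tmsb4x was the 1 called higher, and 0 were called with the scanner's log ratio, the value table, median centring, scaling or no filter (its adjusted p in limma ranged from 4.64e-06 to 0.685). An offset of 16 and the brightest probe each added 1 lower call, Tagln (adjusted p in limma 0.0205 to 0.685 over the settings). Among the other actin genes, an offset of 16 called 2 higher, and both channels above background and the brightest probe 1 each. The median of the mean ratios of the 15 probes, 0.41, was 1.40 with median centring, when the median of all probes was 0.66, and -0.02 to 0.76 with 1 array left out. The mean log2 ratio stayed between 2.72 and 4.03 for Tmsb4x and between -2.24 and -1.10 for Tagln over the settings that kept both arrays. The cause of these changes was not tested. With 1 array left out there is no spread between samples, so no calls can be given. The test was itself paired, since each ratio pairs a knockout with a wild-type sample on 1 array. With 1 group of ratios, no further pairing was possible.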
